A study of Sus scrofa with 12 samples.

Results

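Respiratory complex I, the NADH:ubiquinone oxidoreductase of the inner mitochondrial membrane, was followed through the genes whose name begins with NDUF in cultured pig granulosa cells kept in low oxygen. The name alone chose them, and 42 of the 18060 genes of the deposited expression table carried it. They comprised 9 NDUFS and NDUFV genes, called core here, 23 accessory NDUFA, NDUFB and NDUFC genes, 8 NDUFAF assembly factors, and the pair NDUFA4 and NDUFA4L2, which were kept apart. Of the 9 genes called core, NDUFS4, NDUFS5 and NDUFS6 are supernumerary subunits by textbook assignment, and the other 6 are among the 7 nuclear-encoded subunits that bacteria share. A further 4 subunits (NDUFA12, NDUFB3, NDUFS7 and NDUFV3) were named only in the table's description column, so they were not counted among the 42 and are reported separately.

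Granulosa cells surround the oocyte and make oestradiol. The cells were primary cultures from crossbred sows (Duroc × Yorkshire × Landrace) that had reached sexual maturity. They came from antral follicles, were grown in DMEM/F-12 medium with fetal bovine serum, and spent 12 h at 21% O2 (normoxia, balanced with 74% N2) or at 1% O2 (hypoxia, balanced with 94% N2), with 5% CO2 in both. Each condition had 3 biological replicates, each with an input RNA library and a library enriched by an antibody to N6-methyladenosine (m6A, a methylated base of messenger RNA). The labels name no altered genotype and no further agent, and oxygen is the labelled difference. Whether each replicate came from a separate sow is not given, and the p-values measure only the spread between these samples.

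Complex I takes electrons from NADH at the tip of its peripheral arm, passes them along iron-sulphur clusters to ubiquinone, and pumps protons through its membrane arm. Core subunits carry the cofactors, accessory subunits surround and stabilise them, and assembly factors build the modules without remaining in the finished enzyme. In many hypoxic cells the transcription factor HIF-1 raises NDUFA4L2, a relative of the subunit NDUFA4 that is known to dampen complex I activity, and shifts cytochrome c oxidase from COX4I1 to COX4I2.

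Input levels were given in FPKM (fragments per kilobase of transcript, scaled to the mapped fragments of the library), which totalled 294929 to 326804 per library. Differences were tested with limma on log2(FPKM + 1) over the 10196 genes that reached 1 FPKM in at least 3 of the 6 libraries, and a gene was called at a Benjamini-Hochberg adjusted p under 0.05. The fold changes stand on that scale, which understates the change of low genes. Over all tested genes the median log2 fold change was -0.26, with 21.1% called lower and 5.4% higher in hypoxia. A median-ratio factor per library moved the median to 0.02, with 7.39% called lower and 7.34% higher, so values after that scaling stand beside those of the named tested genes. Of the 6 libraries, hypoxia replicate 3 had the lowest median level of a tested gene, 4.50 FPKM against 5.37 and 6.01 in the other hypoxia libraries and 6.38 to 6.85 in normoxia. Without it, 31.2% of genes were called lower and 11.2% higher.

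The granulosa markers FOXL2 (6.83 ± 0.904 FPKM in normoxia, SD, n = 3), FSHR (9.74 ± 0.692), GATA4 (15.99 ± 1.74) and INHA (10.4 ± 1.88) were present, while the aromatase gene CYP19A1 was at 0.233 ± 0.160 FPKM. Summed over the list of 12 granulosa markers, the level was 124 to 131 FPKM in normoxia and 110 to 144 in hypoxia. Of 10 tested markers 1 was called higher and 2 lower by limma, beside 5.4% and 21.1% of all tested genes. INHBB was called higher, from 16.4 ± 1.35 to 31.5 ± 1.82 FPKM (limma adjusted p = 0.00429). FSHR was called lower, at 5.52 ± 0.257 FPKM in hypoxia (limma adjusted p = 0.0101). So was AMHR2, from 2.72 ± 0.826 to 0.784 ± 0.498 FPKM (limma adjusted p = 0.0209). After scaling INHBB stayed called, and FSHR and AMHR2 did not. The 8 fibroblast and smooth-muscle markers summed to 9721 to 11568 FPKM in normoxia and 6314 to 7526 in hypoxia, with 2 called higher and 2 lower. Most of that sum, and its fall, was ACTA2, smooth-muscle actin, at 7642 ± 998 against 3477 ± 612 FPKM. Called lower with it was DES. COL1A1 (184 ± 6.99 to 286 ± 51.3 FPKM) and PDGFRA (4.33 ± 0.651 to 8.50 ± 1.14) were called higher. TAGLN, the next largest of the list, was not called, at 2311 ± 183 and 2390 ± 313 FPKM. The endothelial sum was 6.28 to 6.93 FPKM in normoxia and 2.88 to 3.16 in hypoxia, nearly all of it PECAM1, with the means of TEK, KDR and VWF at 0.119 FPKM or lower. The leukocyte sum was 3.42 to 4.48 against 2.43 to 6.39 FPKM, with PTPRC, the pan-leukocyte marker, near 0 in both conditions at means of 0.0244 and 0.0256 FPKM. Of the other cell types, theca markers summed to 1.88 to 2.03 FPKM in normoxia and 0.734 to 1.33 in hypoxia. The part of these other-cell markers in the complex I values was not tested, and in bulk RNA fewer cells of a type and less RNA per cell cannot be told apart.

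In hypoxia the transcripts of complex I were lower as a group in the deposited FPKM. Of 42 members 39 passed the expression filter, and 19 of them (48.7%, beside the 21.1% of all tested genes) were called lower and 0 higher by limma. After median-ratio scaling 2 were called lower (5.13%, beside 7.39% of all genes) and 0 higher. At an unadjusted limma p under 0.05 the counts were 26 lower and 0 higher, and after scaling 5 lower and 1 higher. Counts at the unadjusted threshold, here and below, stand without the share of all tested genes and cannot be judged against it. The members' median log2 fold change was -0.57 against -0.26 for all tested genes, and -0.25 against 0.02 after scaling. In the deposited values 37 of 39 had a negative fold change, beside 72.2% of all tested genes, and after scaling 31 were negative and 8 positive. In 28 of 39 members (71.8%, beside 34.9% of all genes) every hypoxia library lay below every normoxia library, in 0 every one lay above (beside 9.25% of all genes), and in 11 the conditions overlapped. NDUFAF5 entered the test only through its normoxia libraries, and without it 18 of 38 were called lower.

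**Figure D1:**
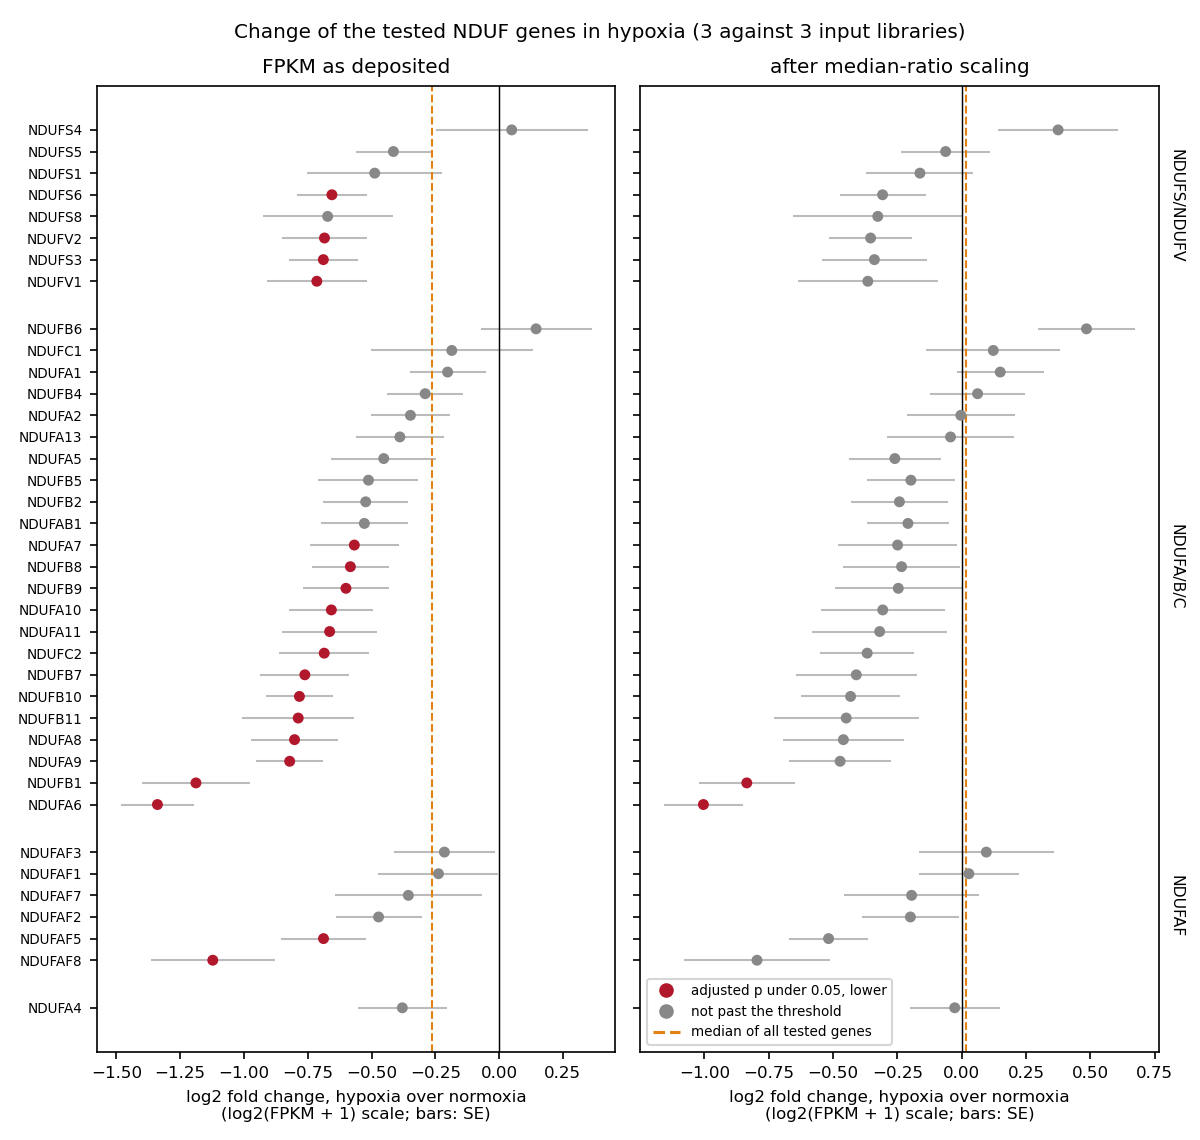
Log2 fold changes (hypoxia over normoxia, log2(FPKM + 1)) of 38 of the 39 tested NDUF genes with their standard errors, from the deposited FPKM and after median-ratio scaling. Red points passed the adjusted threshold and the dashed line marks the median of all tested genes; 19 genes are red in the deposited scale and 2, NDUFA6 and NDUFB1, after scaling.

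Summed over all 42 genes, NDUFA4 and the assembly factors included, the deposited values came to 1624, 1689 and 1653 FPKM in the 3 normoxia libraries. In the 3 hypoxia libraries the sums were 1182, 1017 and 1077 FPKM. The conditions did not overlap, and the hypoxia mean (1092 ± 83.5 FPKM, SD, n = 3) was 66.0% of the normoxia mean (1655 ± 32.8). These sums are not scaled. The median-ratio factors, by which FPKM are divided, were 1.15, 1.17 and 1.08 in normoxia and 0.935, 0.984 and 0.753 in hypoxia. The call of single genes leaned on few libraries, and calls also moved over all tested genes. Across the 6 fits that each left out 1 library, 4 members were called lower every time: NDUFA6, NDUFA9, NDUFB1 and NDUFB10. The count of members called lower was 9, 5 and 6 without normoxia replicates 1, 2 and 3. It was 9, 13 and 24 without hypoxia replicates 1, 2 and 3. Of all tested genes, 11.6%, 7.83% and 10.1% were called lower without normoxia replicates 1, 2 and 3. Without hypoxia replicates 1, 2 and 3 these shares were 10.4%, 22.7% and 31.2%, beside 21.1% with every library. All 19 members called with every library were among the 24 called without hypoxia replicate 3, where 1 member, NDUFS4, was called higher. Hypoxia replicate 3 was the lowest hypoxia library for 19 members, the highest for 18 and in the middle for 5. The members where it was lowest had a median gene span of 15.8 kb, against 7.88 kb where it was highest, and the part of span in this difference was not tested. These counts and spans stand without those of all tested genes, so they cannot be read as particular to the members.

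The core genes held 12.1 to 89.98 FPKM in normoxia (median 50.9). Of the 9, 4 (44.4%, beside 21.1% of all tested genes) were called lower and 0 higher by limma (7 and 0 at an unadjusted p under 0.05). Their median log2 fold change was -0.66, and after scaling it was -0.31 with 0 called and 0 at an unadjusted p under 0.05. The peripheral arm's NADH end is formed by NDUFV1, which binds NADH and its flavin, with NDUFV2 and NDUFS1, which carry iron-sulphur clusters. NDUFV1 measured 52.9, 66.1 and 58.2 FPKM in normoxia and 35.1, 28.3 and 44.8 in hypoxia. All hypoxia libraries were below all normoxia libraries, and the log2 fold change was -0.71 (SE 0.195, limma adjusted p = 0.0351). This call was lost in 5 of 6 fits that left out a library, with adjusted p up to 0.148, and was kept only without hypoxia replicate 3. NDUFV2 measured 18.7, 16.6 and 16.7 FPKM in normoxia and 12.1, 10.8 and 8.53 in hypoxia, again without overlap. Its value was -0.68 (SE 0.168, limma adjusted p = 0.0227), and leaving out normoxia replicate 1, 2 or 3 took the adjusted p to 0.0933, 0.0882 and 0.0773. After scaling NDUFV1 was at -0.37 and NDUFV2 at -0.35, neither called (limma adjusted p 0.422 and 0.192). NDUFS1, the largest subunit of that end, measured 16.4, 15.0 and 12.4 FPKM in normoxia and 11.5, 13.5 and 6.49 in hypoxia. The conditions overlapped, through hypoxia replicate 2, and it was not called (-0.49, SE 0.264, limma adjusted p = 0.225; -0.16 after scaling). NDUFS1 shares 163 bases with EEF1B2 on the opposite strand, at 339 FPKM in normoxia and 300 in hypoxia, and whether the counting used strand is not given.

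The ubiquinone end of the peripheral arm includes NDUFS3, NDUFS7 and NDUFS8. NDUFS3 measured 61.6, 59.6 and 68.2 FPKM in normoxia and 40.4, 35.3 and 40.6 in hypoxia. Its libraries did not overlap and its hypoxia mean was 61.4% of normoxia, or -0.69 as a log2 fold change (limma SE 0.136 and adjusted p = 0.0103; 0.0587 without normoxia replicate 3). After scaling it was -0.34 and not called (adjusted p = 0.316). NDUFS8, which carries iron-sulphur clusters next to the ubiquinone site, measured 30.1, 42.3 and 38.1 FPKM in normoxia and 20.5, 17.1 and 32.4 in hypoxia. The overlap came from hypoxia replicate 3, which stood above normoxia replicate 1, and the gene was not called (-0.67, SE 0.255, limma adjusted p = 0.0973; -0.33 after scaling). Without that library it was called lower, at -0.93 with an adjusted p of 0.00125.

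The supernumerary genes in the NDUFS series differed from each other. NDUFS6, a zinc-binding subunit, was lower in every hypoxia library (49.1, 53.5 and 50.0 FPKM in normoxia against 35.4, 31.5 and 29.2), and was among the 19 called, although 2 of the 6 fits without a library lost the call (highest adjusted p 0.0762) and scaling did too (-0.31, adjusted p = 0.265). NDUFS4, which joins the NADH end to the rest of the arm and is mutated in Leigh syndrome, measured 12.7, 12.5 and 11.2 FPKM in normoxia and 15.1, 17.7 and 7.36 in hypoxia. Hypoxia replicates 1 and 2 were above all normoxia libraries and replicate 3 was below them, and the log2 fold change was 0.05 (SE 0.298, limma adjusted p = 0.929) and 0.37 after scaling (adjusted p = 0.338). Without replicate 3 it was 0.40 and called higher (adjusted p = 0.0447). The sign turned without normoxia replicate 3 (-0.0016), hypoxia replicate 1 (-0.072) or hypoxia replicate 2 (-0.18).

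Accessory subunits ranged from 1.82 to 178 FPKM in normoxia (median 30.1). Of 23, 13 were called lower and 0 higher by limma (16 and 0 at an unadjusted p under 0.05), with a median of -0.58. After scaling 2 were called lower, with a median of -0.25. By family, 6 of 12 tested NDUFA genes (NDUFA4 included), 6 of 10 NDUFB genes and 1 of 2 NDUFC genes were called lower. With the NDUFS and NDUFV genes counted in, the subunits were also divided by place in the enzyme. Called lower were 7 of 13 tested peripheral-arm genes (median -0.66) and 10 of 18 membrane-arm genes (median -0.59). After scaling each arm held 1 called gene, NDUFA6 and NDUFB1 respectively.

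NDUFA6 (chr5:6562011-6567647, plus strand) encodes a subunit of the LYR family that holds the mitochondrial acyl carrier protein, NDUFAB1, on the peripheral arm. It measured 29.6, 28.9 and 27.8 FPKM in normoxia and 11.4, 11.6 and 9.38 in hypoxia. Replicates of each condition lay close together and the conditions were far apart, the hypoxia mean being 37.6% of normoxia. At -1.34 (SE 0.144, limma adjusted p = 0.00117) its log2 fold change was the lowest among the tested members, and it was -1.004 after scaling (adjusted p = 0.0047). No left-out library raised the adjusted p above 0.0146. Its partner NDUFAB1, which is also the carrier protein of mitochondrial fatty acid synthesis, was at 10.8 ± 1.46 FPKM in normoxia and 7.21 ± 0.952 in hypoxia and was not called with all libraries.

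NDUFB1 (chr7:113652776-113659672) encodes a small subunit of the membrane arm. It measured 168, 198 and 169 FPKM in normoxia and 98.4, 81.5 and 57.7 in hypoxia, the highest normoxia mean of the accessory genes. The conditions did not overlap and the hypoxia mean was 44.5% of normoxia. Its log2 fold change was -1.19 (SE 0.211, limma adjusted p = 0.00761), -0.84 after scaling (adjusted p = 0.0226), and the adjusted p stayed at or below 0.0473 whichever library was left out.

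**Figure D2:**
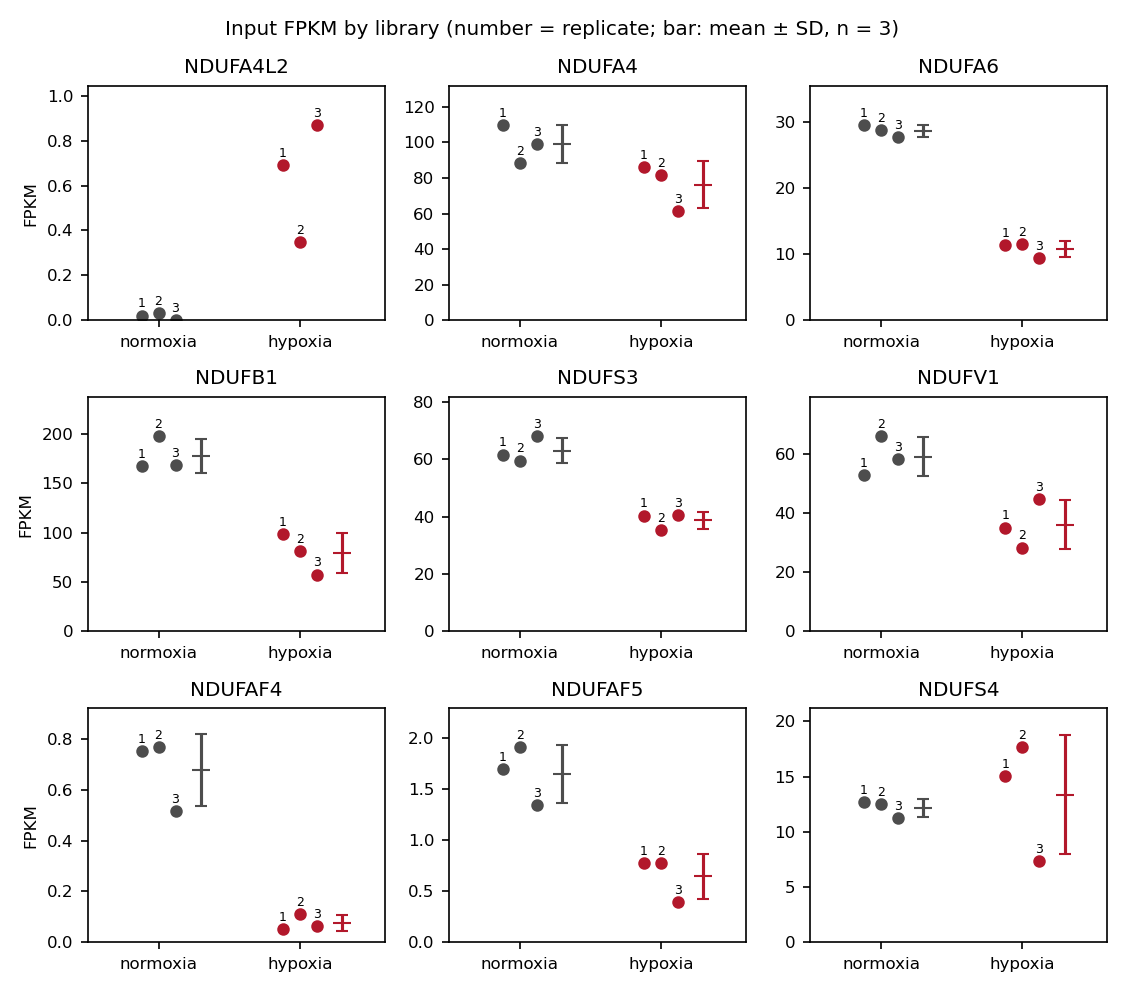
Input FPKM of NDUF genes by library, the number beside each point being the replicate and the bar the mean ± SD of 3 libraries; the bar is left out for NDUFA4L2, which is listed at 0 in normoxia replicate 3. NDUFA6 lies at 27.8 to 29.6 FPKM in normoxia and at 9.38 to 11.6 in hypoxia, and each panel has its own linear axis from 0.

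The next largest changes among accessory subunits were in genes of both arms. NDUFA9, which sits where the arms meet, measured 54.0, 56.1 and 56.2 FPKM in normoxia and 32.0, 28.1 and 33.0 in hypoxia. NDUFB10, a disulphide-bonded subunit of the membrane arm, measured 77.4, 80.5 and 80.0 FPKM and 49.9, 41.5 and 46.1. Neither overlapped, with values of -0.82 (SE 0.132, limma adjusted p = 0.00493) and -0.78 (SE 0.132, limma adjusted p = 0.00593), and neither was called after scaling (-0.47 and -0.43, adjusted p 0.159 and 0.176). NDUFA8, a disulphide-bonded subunit facing the intermembrane space, went from 26.8, 31.9 and 30.6 FPKM to 18.02, 13.5 and 18.8 (-0.80, SE 0.171, limma adjusted p = 0.0139; 0.0774 without normoxia replicate 2, 0.0645 without normoxia replicate 3 and 0.238 after scaling). X-linked NDUFB11, also of the membrane arm, went from 20.7, 25.2 and 22.4 FPKM to 14.3, 9.06 and 15.8. It did not overlap and was called (-0.79, SE 0.22, limma adjusted p = 0.0374). However, 4 of the 6 fits without a library lost the call, with adjusted p up to 0.151, and after scaling it was -0.45 (adjusted p = 0.338). NDUFB11 shares 1014 bases with RBM10 on the opposite strand, at 26.3 FPKM in normoxia and 15.7 in hypoxia, and whether the counting used strand is not given.

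The remaining called subunits were NDUFA7, NDUFA10, NDUFA11, NDUFB7, NDUFB8, NDUFB9, NDUFC2 and, from the core series, NDUFS6. Their log2 fold changes lay between -0.76 and -0.57 with limma adjusted p from 0.0126 to 0.0498, and each lost its call without at least 1 library (highest adjusted p 0.0762 for NDUFS6 to 0.198 for NDUFA7). After scaling the 8 lay between -0.41 and -0.23, past the threshold in no case. The members NDUFA1, NDUFA2, NDUFA5, NDUFA13, NDUFAB1, NDUFB2, NDUFB4, NDUFB5 and NDUFS5 were not called, with log2 fold changes between -0.53 and -0.20 and adjusted p from 0.0572 to 0.368. Without hypoxia replicate 3, NDUFA13 (-0.48, adjusted p = 0.0302), NDUFAB1 (-0.43, 0.0443) and NDUFB2 (-0.53, 0.0231) were called lower. NDUFA7 (0.0498) lay just inside the threshold and NDUFB2 (0.0572) just outside it. NDUFA1, a small membrane-arm subunit encoded on the X chromosome, kept the highest share of its normoxia level in that group, at 77.4 ± 4.08 FPKM in normoxia and 67.5 ± 9.14 in hypoxia. After scaling NDUFA1 (0.15) and NDUFB4 (0.061) turned positive and the other 7 stayed negative.

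NDUFB6, a membrane-arm subunit, was the other tested member with a positive fold change besides NDUFS4. It measured 22.6, 21.7 and 18.5 FPKM in normoxia and 30.0, 24.1 and 17.2 in hypoxia. Hypoxia replicates 1 and 2 were above normoxia and replicate 3 was below it, and the gene was not called (0.14, SE 0.218, limma adjusted p = 0.677; -0.03 without hypoxia replicate 1; 0.48 after scaling). NDUFC1 measured 10.8, 7.42 and 6.97 FPKM in normoxia and 9.13, 9.51 and 4.07 in hypoxia, which overlapped (-0.19, SE 0.318, limma adjusted p = 0.718). It shares 3356 bases on the same strand with MGARP, which was at 30.5 FPKM in normoxia and 66.0 in hypoxia, so the NDUFC1 value is uncertain, and its sign turned after scaling (0.12) and without hypoxia replicate 3 (0.16).

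**Figure D3:**
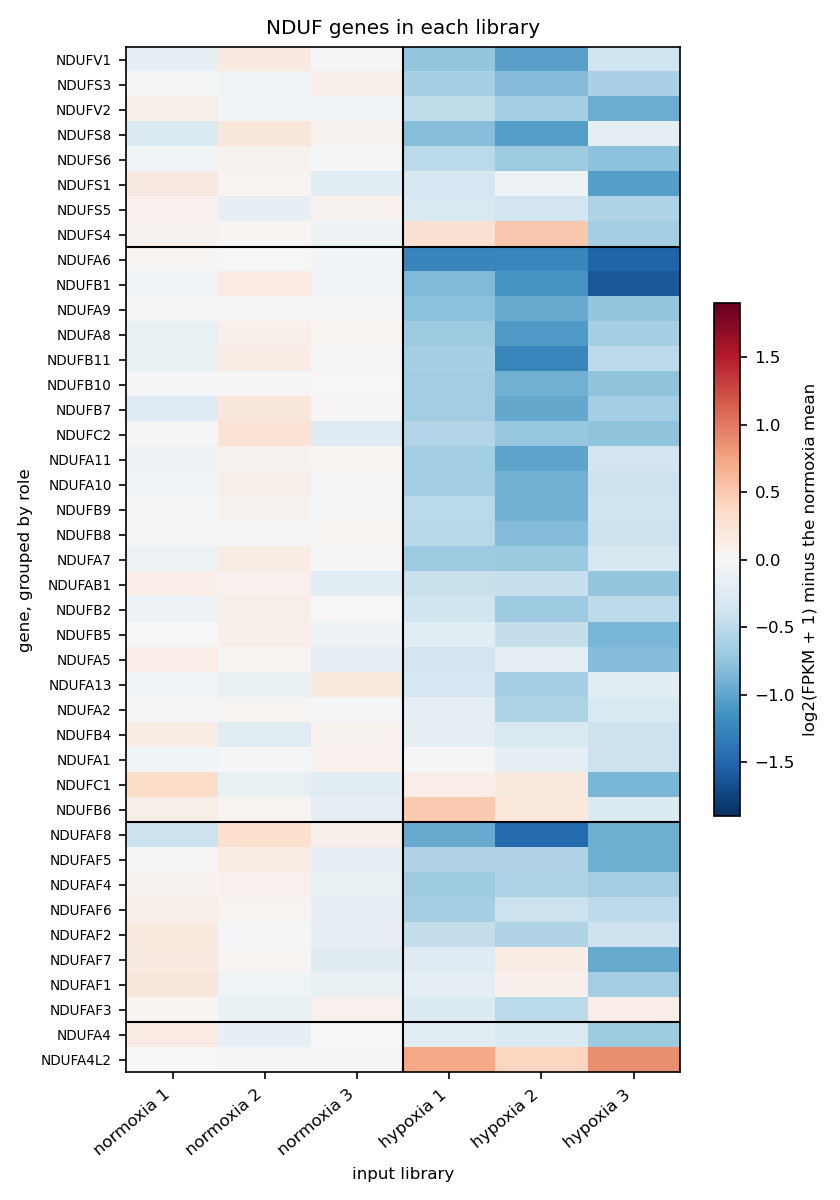
Difference of the log2(FPKM + 1) of 41 of the 42 NDUF genes from their normoxia means in the 3 normoxia and 3 hypoxia libraries, with genes grouped by role. Blue is lower and red higher; the hypoxia columns are mostly blue, and in NDUFS4 and NDUFB6 hypoxia replicates 1 and 2 are red while replicate 3 is blue.

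Assembly factors were the least abundant group, at 0.677 to 16.5 FPKM in normoxia (median 2.68). Of 8, 6 passed the filter and 2 (33.3%, beside 21.1% of all tested genes) were called lower by limma (median -0.41). After scaling 0 were called, 2 were lower at an unadjusted p under 0.05, and the median was -0.20. Without NDUFAF5, which the filter admitted through normoxia alone, 1 of 5 was called. NDUFAF5 and NDUFAF8 work together, NDUFAF5 being the enzyme that hydroxylates an arginine of NDUFS7 and NDUFAF8 its stabilising partner. NDUFAF8 measured 11.9, 20.3 and 17.4 FPKM in normoxia and 7.81, 5.18 and 8.003 in hypoxia. NDUFAF5 measured 1.69, 1.91 and 1.34 FPKM in normoxia and 0.774, 0.778 and 0.394 in hypoxia. Both partners stood below normoxia in all 3 hypoxia libraries, at 42.3% and 39.3% of the normoxia mean. NDUFAF8 changed by -1.12 (SE 0.244, limma adjusted p = 0.0155; 0.0757 without normoxia replicate 2, 0.0649 without normoxia replicate 3; 0.106 after scaling). NDUFAF5 had -0.69 (SE 0.168, limma adjusted p = 0.0222; 0.0869 and 0.108 without normoxia replicates 1 and 2, 0.0681 without hypoxia replicate 1; 0.0588 after scaling).

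NDUFAF3 and NDUFAF4 bind each other and the early ubiquinone module. NDUFAF4 measured 0.750, 0.767 and 0.515 FPKM in normoxia and 0.0510, 0.112 and 0.0628 in hypoxia, so it never reached the filter. Its hypoxia mean was 11.11% of normoxia, the lowest share of the 42 genes, and with no filter its log2 fold change was -0.64 (limma adjusted p = 0.00721). The authors' deposited table gave it a log2 fold change of -3.17 with q = 1.25e-07. NDUFAF3 was at 6.81, 5.96 and 7.04 FPKM in normoxia and 5.34, 4.32 and 7.30 in hypoxia. Hypoxia replicate 3 was the highest of all 6 libraries, and the gene was not called (limma adjusted p = 0.483), its log2 fold change being -0.21 and 0.10 after scaling. NDUFAF3 shares 571 bases with IMPDH2 on the opposite strand, which was at 51.6 FPKM in normoxia and 48.7 in hypoxia. Whether the counting used strand is not given, so the NDUFAF3 value is uncertain. NDUFAF6, which acts in building the membrane module around ND1, measured 1.25, 1.17 and 0.880 FPKM in normoxia and 0.339, 0.580 and 0.475 in hypoxia. It too missed the filter, at 42.3% of the normoxia mean (-0.52, limma adjusted p = 0.0361 with no filter).

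The other 3 assembly factors were not called. NDUFAF2, a relative of NDUFA12 that helps to complete the peripheral arm, measured 4.51, 3.73 and 3.34 FPKM in normoxia and 2.52, 2.26 and 2.69 in hypoxia. It did not overlap, but its log2 fold change of -0.47 missed the threshold (limma adjusted p = 0.0798; 0.0266 without hypoxia replicate 3), and it was -0.20 after scaling. NDUFAF1, a chaperone of the membrane arm, measured 4.45, 3.43 and 3.24 against 3.18, 4.03 and 1.98 FPKM (-0.24, limma adjusted p = 0.513, and 0.03 after scaling). NDUFAF7, a methyltransferase, measured 1.80, 1.59 and 1.11 against 1.10, 1.73 and 0.272 FPKM (-0.36, limma adjusted p = 0.418, and -0.19 after scaling). In both, hypoxia replicate 2 lay among the normoxia libraries and replicate 3 was the lowest of the 6. On the opposite strand NDUFAF1 shares 16588 bases with NUSAP1, at 8.41 FPKM in normoxia and 7.93 in hypoxia. NDUFAF7 likewise shares 2360 bases with PRKD3, at 5.66 and 6.27 FPKM. Whether the counting used strand is not given, so the values of NDUFAF1 and NDUFAF7 are uncertain.

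NDUFA4L2 (chr5:22535740-22548882, minus strand) ran the other way. It measured 0.0210, 0.0309 and 0 FPKM in normoxia and 0.689, 0.347 and 0.869 in hypoxia. Every hypoxia library was above every normoxia library, but all 6 lay under 1 FPKM, so the gene was not tested in the filtered table. With no filter the difference in log2(FPKM + 1) was 0.67 (limma adjusted p = 0.0192), among 4.29% of genes called higher and 11.6% lower in that fit. The authors' deposited table listed it as higher, with a log2 fold change of 5.20 and q = 2.59e-11. The gene shares 4580 bases with SHMT2 on the opposite strand, which was at 54.8 FPKM in normoxia and 18.2 in hypoxia, and nothing used here says whether the counting used strand.

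NDUFA4 (chr9:80636929-80644315), now placed in cytochrome c oxidase and not in complex I, measured 110, 88.2 and 98.9 FPKM in normoxia and 86.0, 81.5 and 61.5 in hypoxia. All hypoxia libraries were below normoxia, and it was not called (-0.38, SE 0.174, limma adjusted p = 0.157; -0.03 after scaling). Of the summed FPKM of the pair, NDUFA4L2 made up 0.0191%, 0.0350% and 0% in normoxia and 0.795%, 0.424% and 1.39% in hypoxia. The shares did not overlap, with a difference of means of 0.853 percentage points, and an exact two-sided permutation test gave p = 0.1, the smallest that 3 against 3 libraries allow. NDUFA4 made up nearly all of the pair's FPKM in every library.

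The 4 subunits named only in the description column had lower means in hypoxia in the deposited FPKM, and limma called none. NDUFS7, the remaining nuclear core subunit of the ubiquinone end, went from 10.97 ± 2.28 to 7.39 ± 1.93 FPKM (-0.52, adjusted p = 0.145; -0.69 and 0.0130 without hypoxia replicate 3). NDUFB3 went from 20.4 ± 2.77 to 14.9 ± 5.86 FPKM (-0.49, adjusted p = 0.269), and NDUFA12 from 13.7 ± 0.560 to 11.3 ± 1.22 (-0.26, adjusted p = 0.240). NDUFV3, a small subunit beside NDUFV1 and NDUFV2, went from 5.07 ± 1.03 to 4.09 ± 0.560 FPKM (-0.25, adjusted p = 0.383). After scaling NDUFS7 (-0.20) and NDUFB3 (-0.16) stayed negative, and NDUFA12 (0.072) and NDUFV3 (0.050) turned positive. All values are means ± SD of 3 libraries.

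In the authors' deposited table, whose significance column marked 8.72% of all genes as lower and 4.75% as higher, 6 members were marked lower and 1 higher. The lower ones were NDUFA6, NDUFB1, NDUFAF4, NDUFAF5, NDUFAF6 and NDUFAF8, and the higher one was NDUFA4L2. Those 6 are also the members whose hypoxia mean was below 50% of normoxia. Each marked member had an authors' log2 fold change above 1 in size. A cut on fold change in that column would make this match by itself, so it is no separate result. Of these 7, 5 had q under 0.05 in that table.

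Assembly factors without an NDUF name had a negative fold change in 9 of 11 tested, beside 72.2% of all tested genes, and in 6 of 11 after scaling. Of 13 listed, 12 were in the table and 11 tested. Limma called 5 lower (45.5%, beside 21.1% of all tested genes) and 0 higher, the same at an unadjusted p under 0.05. The median was -0.42, and after scaling 1 was called and the median was -0.18. ACAD9, an acyl-CoA dehydrogenase relative in the membrane-arm assembly complex, went from 4.39 ± 0.288 to 1.63 ± 0.136 FPKM. Its log2 fold change was -1.04 (SE 0.153, limma adjusted p = 0.0036), and it was the gene still called after scaling (-0.78, adjusted p = 0.0231). TMEM70, which acts in complex V and complex I assembly, went from 19.0 ± 3.63 to 8.24 ± 3.25 FPKM (-1.17, limma adjusted p = 0.0299), a call lost without normoxia replicate 1, 2 or 3 or hypoxia replicate 1 (adjusted p 0.0562 to 0.114) and after scaling (-0.85, 0.0559). FOXRED1, a flavoprotein assembly factor, went from 5.97 ± 1.195 to 3.22 ± 0.496 FPKM (-0.72, limma adjusted p = 0.0302), a call that only leaving out hypoxia replicate 3 kept (adjusted p up to 0.141), and it was -0.42 after scaling.

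The other respiratory complexes give the frame for these values. Called lower were 3 of 4 tested genes of complex II (median -0.57), 4 of 8 of complex III (-0.63), 2 of 12 of complex IV (-0.27) and 5 of 13 of complex V (-0.46). These are 75%, 50%, 16.7% and 38.5%, beside 21.1% of all tested genes, whose median was -0.26. After scaling the counts were 0, 3, 0 and 1, beside 7.39% of all tested genes. At an unadjusted limma p under 0.05 the counts after scaling were 1, 3, 0 and 3. Whether complex I differed from any of them was not tested. The gene called higher was COX4I2, the hypoxia-responsive isoform of a cytochrome c oxidase subunit, which measured 1.63, 1.56 and 1.79 FPKM in normoxia and 21.9, 14.2 and 25.4 in hypoxia. All hypoxia libraries were far above normoxia (2.98, SE 0.225, limma adjusted p = 0.000439; 3.26 after scaling). Its alternative COX4I1 was at 552 ± 41.3 and 441 ± 102 FPKM and was not called (-0.35, limma adjusted p = 0.232; 0.0063 after scaling). LONP1, the mitochondrial protease that is known to degrade COX4I1, rose from 33.3 ± 1.96 to 55.0 ± 2.60 FPKM (0.71, SE 0.129, limma adjusted p = 0.0077; 1.06 after scaling).

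**Figure D4:**
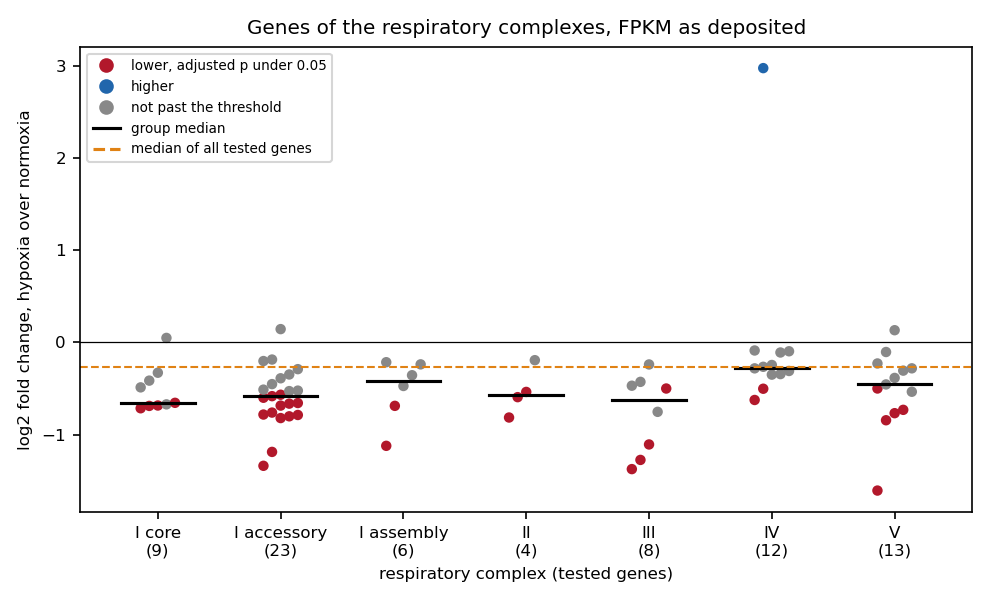
Log2 fold changes (hypoxia over normoxia) of the tested genes of complex I, by role, and of complexes II to V, with the number of tested genes under each name. Each point is a gene, red where called lower and blue where called higher; the dashed line is the median of all tested genes (-0.26), and COX4I2 at 2.98 is the blue point of complex IV.

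The m6A peaks, regions enriched in the antibody libraries over input, were taken from the authors' lists of 25346 peaks in normoxia and 24444 in hypoxia. Each list holds 1 set of peaks per condition, so there is no replicate error on a peak, and fold enrichments are the authors' values. In normoxia 25 of 42 members had 36 peaks, and in hypoxia 24 had 30. Among tested genes, 24 of 39 members (61.5%) had a normoxia peak beside 85.8% of all tested genes, and 22 (56.4%) had a hypoxia peak beside 79.8%. Both conditions had a peak in 22 members, normoxia alone in 3, hypoxia alone in NDUFA4L2 and NDUFB6, and neither in 15. The 15 spanned from NDUFAF6 at 1.10 FPKM to NDUFA4 at 99.0 FPKM in normoxia, with a median of 36.8 FPKM against 21.0 in the members with a peak.

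Peaks were listed for 4 of 9 core genes in each condition, for 14 of 23 accessory genes in normoxia and 13 in hypoxia, and for 7 and 6 of 8 assembly factors. The median fold enrichment of members' peaks was 2.37 in normoxia (range 1.38 to 10.6) and 2.87 in hypoxia (1.41 to 9.84), beside 4.23 and 4.81 over the full lists. The authors placed 44.4% of members' normoxia peaks in 3' UTRs, 36.1% in 5' UTRs and 19.4% in other exons, beside 45.8%, 17.1% and 32.8% of the full list. In hypoxia each of the 3 regions held 33.3%, beside 43.7% (3' UTRs), 15.9% (5' UTRs) and 35.8% (other exons) of the full list. Of the 36 normoxia peaks 26 overlapped a hypoxia peak of the same member by at least 1 base, and 27 of the 30 hypoxia peaks did so.

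Among the strongest were a 3' UTR peak of NDUFS6 (chr16:78993913-78994323), with 7.04-fold enrichment in normoxia and 9.84-fold in hypoxia, and a 5' UTR peak of NDUFA13 (chr2:58410410-58411596), with 10.6-fold and 8.25-fold. NDUFAF4, at 0.112 FPKM or lower in each hypoxia input library, had a peak annotated as 3' UTR in normoxia (chr1:64038461-64044008, 5548 bases, 6.85-fold). In hypoxia it had peaks of 5.15-fold and 4.74-fold. The authors' deposited table gave the 5.15-fold peak an adjusted p of 0.0759, the 4.74-fold peak 0.00166, and 2 further normoxia peaks of the gene 0.189 and 0.122. The hypoxia-only peak of NDUFA4L2 (chr5:22541202-22542233, exonic) was 2.37-fold enriched with an adjusted p of 0.0347 in the authors' deposited table. Its normoxia input level was at or near 0. NDUFB6 had a peak annotated as 5' UTR, spanning 47276 bases, in hypoxia alone (4.47-fold).

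**Figure D5:**
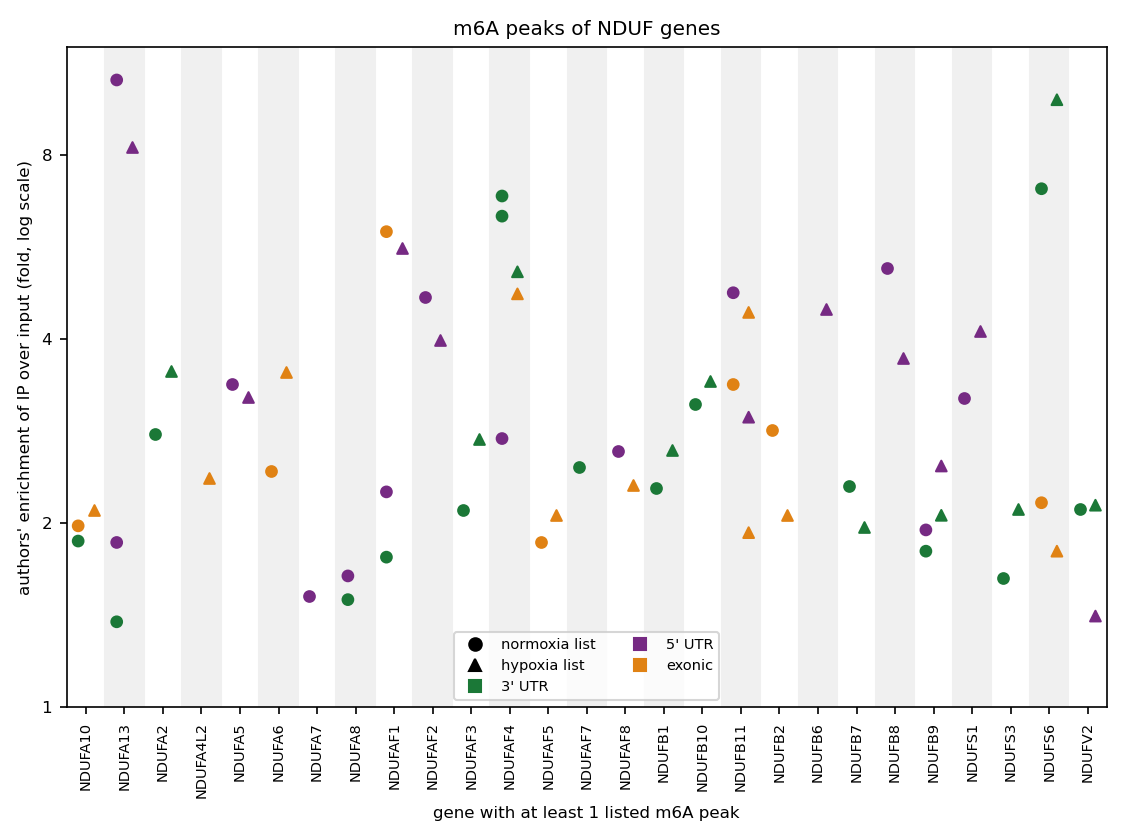
Fold enrichment (log axis, base 2) of the authors' m6A peaks in each NDUF gene with a peak, with circles for the normoxia list and triangles for the hypoxia list and colours for the annotated region. Most points lie below 4-fold; NDUFA13 in normoxia (10.6) and NDUFS6 in hypoxia (9.84) are the highest of these genes in their conditions.

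The authors' list of 1206 differential peaks held 2 members, beside 9.62% of all tested genes and 5.13% of tested members. NDUFA6 had an exonic peak (chr5:6562072-6565472) with a log2 difference of 0.48, higher in hypoxia, and an adjusted p of 0.00138 in the authors' deposited table. Its listed enrichment was 2.43-fold in normoxia and 3.53-fold in hypoxia, while its input level was 37.6% of normoxia. NDUFS1 had a 5' UTR peak (chr15:109447179-109448577) with a log2 difference of -0.73 and an adjusted p of 0.152 in that table. The listed NDUFS1 enrichments were 3.20-fold in normoxia (chr15:109447149-109451676) and 4.12-fold in hypoxia (chr15:109448547-109450434). The hypoxia peak met the differential peak only at its edge, so these enrichments cannot be set against the log2 difference. With 2 genes, no relation between m6A and level was tested.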

How the data were processed

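The series holds input and m6A-enriched RNA libraries of pig granulosa cells, 12 in all, of which the 6 input libraries were used for levels. Input values are FPKM as the authors deposited them, per the file headers. The authors' deposited tables also gave log2 fold changes, fold enrichments (a ratio) and p-values or q-values, which were copied and not recomputed. The submitters' processing notes name HISAT2 2.0.4, HOMER 4.10, StringTie 2.1.2, fastp 0.19.4, edgeR 4.1 and FastQC, and the build Sscrofa11.1. What each did, how peaks were called, whether replicates were pooled and whether strand was used is not given in the sources at hand. Peak starts were read as counted from 0 and printed counted from 1. Sequencing depth is unknown: of 3081 genes under 0.5 FPKM, 7 shared the commonest ratio between libraries, so whole reads could not be recovered.

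Levels were fitted as log2(FPKM + 1) with limma 3.58.1 in R 4.3.3 (hypoxia against normoxia, 3 libraries each, moderated across genes, Benjamini-Hochberg over the 10196 genes with at least 1 FPKM in 3 libraries). On simulated data of 9908 genes it recovered 49.5% of 93 genes changed by 1 and 99.0% of 96 changed by 2 on the log2 scale, with 12 false among 153 calls. Alternatives were a pseudocount of 0.1, no filter, a filter at 5 FPKM, a median-ratio factor, a replicate block, each library left out, and a 4-fold or 50% overlap rule for peaks. The members and gene lists were chosen with earlier results of these data known. Genes named with values are the core and assembly members, the accessory members with the largest changes and those with a positive or special pattern. Also named are up to 3 genes of each other list and several cell-type markers. NDUFS6, NDUFA1, NDUFA13, NDUFAB1, INHBB, AMHR2, COL1A1, PDGFRA, DES and TAGLN were named after their values were seen. Values of 1 core member and 1 gene of another list are not reported here. Figures were drawn with matplotlib 3.10.9.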

Additional observations from a re-analysis of the deposited data

How the results depend on the processing

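With a median-ratio factor per library, genes called went from 2699 to 1501, members called lower from 19 to 2, and the group medians to -0.31 (core), -0.25 (accessory) and -0.20 (assembly). It turned the sign of NDUFC1 (0.12), NDUFAF1 (0.028) and NDUFAF3 (0.095). Leaving out 1 library at a time gave 1132 to 4329 genes called, 5 to 24 members lower, 0 to 1 higher, and core medians of -0.63 to -0.56. NDUFB6 then ranged from -0.034 (without hypoxia replicate 1) to 0.35, NDUFC1 from -0.37 to 0.16 (without hypoxia replicate 3), and NDUFS4 from -0.18 to 0.40, being -0.0016 without normoxia replicate 3 and -0.072 and -0.18 without hypoxia replicates 1 and 2. No filter gave 1 member higher, NDUFA4L2. A pseudocount of 0.1 took NDUFA4L2 to 2.58 and the assembly median to -0.68. A filter at 5 FPKM took that median to -0.67, with only NDUFAF3 (-0.21) and NDUFAF8 (-1.12) left in it, and NDUFA4L2 gave no value there. The 4 subunits added from the description column, an alternative chosen after seeing the data, took the core median to -0.52. Peaks enriched at least 4-fold were left in 7 members in each condition, and 1 differential peak had an adjusted p under 0.05. The causes of these shifts were not tested. Same-numbered replicates correlated at 0.586, 0.040 and 0.697 in their deviations from the condition means, so the numbers were not taken as pairs. With a replicate block 21 members were called lower and 3463 genes were called, and normoxia replicate 1 correlated best with hypoxia replicate 2 (0.641), not with its own number. Of values for single genes, 173 kept direction and side of the threshold, 31 missed it, 4 newly passed it and 8 turned. Depth is unknown, so genes near 0 FPKM carry no counting interval, and 3 libraries a condition limit every test.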

Other observations

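Further mitochondrial lists bear on complex I because its peripheral arm needs iron-sulphur clusters and its genes need nuclear regulators. Of 14 genes for making iron-sulphur clusters, 12 were tested. Limma called 6 lower (50%, beside 21.1% of all tested genes) and 0 higher (7 and 0 at an unadjusted p under 0.05). The median log2 fold change was -0.64. After scaling 4 were called lower and the median was -0.35. HSPA9, the mitochondrial chaperone that hands clusters on, measured 69.7, 61.7 and 53.7 FPKM in normoxia and 26.1, 29.6 and 14.8 in hypoxia (-1.40, limma adjusted p = 0.00917; -1.06 after scaling). FDX2, the ferredoxin that supplies electrons, measured 32.1, 40.3 and 39.1 FPKM in normoxia and 14.2, 11.8 and 19.4 in hypoxia (-1.26, limma adjusted p = 0.0057; adjusted p = 0.0676 after scaling). Neither gene overlapped between conditions, and both calls held in each fit that left out 1 library.

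Of 8 regulators of mitochondrial gene programmes 4 were tested. Limma called 1 lower (25%, beside 21.1% of all tested genes) and 0 higher, the same at an unadjusted p under 0.05. PPRC1, a coactivator related to PGC-1, measured 9.25, 10.6 and 12.2 FPKM in normoxia and 2.13, 3.59 and 1.86 in hypoxia, without overlap (-1.75, SE 0.223, limma adjusted p = 0.00239; -1.47 after scaling). The median of the 4 was -0.20, near the -0.26 of all tested genes.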
